A study of Homo sapiens with 36 samples.

Results

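The genes described here are 10 genes of squamous (stratified) epithelium, chosen from a list of squamous keratins and cornified envelope genes and found among the 57500 Ensembl gene IDs of the count table by symbol. The choice was made with earlier results of these data known. They are the keratin genes KRT5, KRT6A, KRT17 and KRT13, the cornified envelope precursors IVL (involucrin), SPRR1A, SPRR1B, SPRR2D and SPRR3 (small proline-rich proteins), and TGM1 (transglutaminase 1). PolyA-selected RNA was sequenced from FLO1 and OE33, established cell lines of esophageal adenocarcinoma, a gland-forming cancer of the esophagus. All cells were stably transduced, with a non-targeting control shRNA (shControl) or with 1 of 2 shRNAs against APE1, shAPE1#1 or shAPE1#3. APE1, encoded by APEX1, cuts DNA at abasic sites during base excision repair and can also act on transcription factors as a reducing agent. Each kind of cell was sampled unexposed and after an acidic bile salt cocktail (ABS, 200 µM, pH 4, 20 min) with 6 h of recovery, which makes 12 groups of 3 libraries, 36 in all. The medium was DMEM for FLO1 and RPMI1640 for OE33, hence medium and line cannot be told apart, and whether the transduced cells were pools or clones is not given in the sources used here. The labels describe the 3 libraries of a group as independent biological replicates.

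Squamous epithelium renews from a basal layer whose cells hold the keratin KRT5. KRT6A and KRT17 are keratins of stressed, wounded or hyperproliferating epithelium, and KRT13 is the suprabasal keratin of the non-keratinizing lining of mouth and esophagus. As cells move up, involucrin and the small proline-rich proteins are crosslinked beneath the plasma membrane by transglutaminases such as TGM1, which gives the cornified envelope. The normal esophagus is lined by such an epithelium, while esophageal adenocarcinoma is a columnar tumor.

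Library totals ranged from 21751357 to 40654584 counts in FLO1 and from 20650925 to 38021756 in OE33. Levels below are CPM (counts per 1000000 counts of the library), changes are log2 fold changes ± SE, and a gene was called at a Benjamini-Hochberg adjusted p under 0.05 over all genes tested with edgeR. APEX1 was lower in every shAPE1 library than in any shControl library: 197 ± 1.60 CPM (SD, n = 3) in unexposed FLO1 shControl against 25.2 ± 0.191 with shAPE1#1 and 37.1 ± 1.07 with shAPE1#3, and 195 ± 3.12 CPM in OE33 against 23.9 ± 1.71 and 21.8 ± 0.531. Markers of columnar epithelium summed to 2464 to 4684 CPM over 18 genes in the FLO1 libraries and to 20224 to 26409 CPM in the OE33 libraries. Markers of fibroblasts and mesenchyme (12 genes) summed to 2922 to 3596 CPM in FLO1, nearly all of it VIM, and to 4.74 to 25.6 CPM in OE33. EPCAM, an epithelial adhesion molecule, stood at 0.981 ± 0.665 CPM in unexposed FLO1 shControl and at 586 ± 12.9 CPM in OE33 (SD, n = 3), so the epithelial label of FLO1 was borne out by KRT8 (1558 ± 102 CPM) but not by EPCAM. Immune markers (8 genes) summed to at most 13.2 CPM and endothelial markers (5 genes) to at most 1.73 CPM in any library, and MS4A1, a B-cell marker, was at 0 in all. These are bulk samples, in which fewer cells of a type and less RNA per cell cannot be told apart.

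On GRCh38, with GENCODE 29 gene bounds, the precursor genes lie on chromosome 1: IVL (ENSG00000163207, chr1:152908545-152911886, plus strand), SPRR1A (ENSG00000169474, chr1:152985231-152985500, plus strand), SPRR3 (ENSG00000163209, chr1:153001747-153003856, plus strand), SPRR1B (ENSG00000169469, chr1:153031202-153032900, plus strand) and SPRR2D (ENSG00000163216, chr1:153039725-153041931, minus strand). The type II keratin genes KRT6A (ENSG00000205420, chr12:52487174-52493257, minus strand) and KRT5 (ENSG00000186081, chr12:52514575-52520687, minus strand) lie on chromosome 12, the type I keratin genes KRT13 (ENSG00000171401, chr17:41500981-41505705, minus strand) and KRT17 (ENSG00000128422, chr17:41619441-41624842, minus strand) on chromosome 17, and TGM1 (ENSG00000092295, chr14:24249114-24264432, minus strand) on chromosome 14. Counts are over exons.

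Fewer of the 10 squamous genes were found in FLO1 than in OE33. OE33 had all 5 envelope precursor genes and KRT13, and FLO1 had almost none: over all 18 FLO1 libraries SPRR1A gave 8 counts, SPRR1B 9, SPRR2D 13, SPRR3 16 and IVL 17, and the highest library held 6 counts of any of them. Only KRT5, KRT6A, KRT13, KRT17 and TGM1, 5 of the 10, passed the filter on low counts in FLO1, while all 10 passed in OE33. The largest of the 5 precursor levels in FLO1 was a mean of 0.0336 CPM, for IVL, over the 18 libraries.

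Per length, the unexposed OE33 shControl cells were richest in SPRR3 (6.89 CPM per kb of exon, mean of 3 libraries), IVL (6.09) and KRT13 (5.46). SPRR1A (3.25 CPM per kb), SPRR1B (2.28) and KRT17 (2.22) followed, then KRT6A (1.28) and SPRR2D (0.605), with KRT5 (0.213) and TGM1 (0.200) lowest. The squamous genes were thus minor transcripts of OE33, where KRT8, a columnar keratin, had 909.8 CPM per kb. The value of SPRR1A rests on a model of 270 bases in GENCODE 29, which covers only its coding part, whereas RefSeq places its start upstream of it.

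Between the unexposed shControl cells of the 2 lines, edgeR called 7 of the 10 genes, where 77.6% of all 18199 genes tested were called. SPRR1A and SPRR2D had no count in the 3 FLO1 libraries, so OE33 was at least 24.7-fold higher for SPRR1A and at least 18.03-fold higher for SPRR2D against a floor of 3 counts over the group. SPRR1B and SPRR3 had 1 FLO1 count each, which put OE33 119-fold higher for SPRR1B (95% exact interval 21.0 to 4748) and 841-fold higher for SPRR3 (150 to 33240), both covering counting error only. For IVL, with 2 FLO1 counts, the ratio was 555 (153 to 4585). KRT13 was 89.97-fold higher in OE33 (log2 6.49 ± 0.31, adjusted p = 1.28e-20), and TGM1 ran the other way, with 2.24 ± 0.809 CPM in FLO1 and 0.746 ± 0.241 CPM in OE33 (SD, n = 3, log2 -1.45 ± 0.32, adjusted p = 0.000113). The 5 precursor genes passed the filter of this fit only through OE33, so their calls restate which line has them. KRT5, KRT6A and KRT17 were not called between the lines, and for KRT6A and KRT17 this rests on 1 FLO1 library, as described below. KRT5 was not called with it (-0.85 ± 0.63, adjusted p = 0.217) or without it (0.71 ± 0.64, adjusted p = 0.316).

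The trace counts of the precursor genes in FLO1 were also set beside genes of OE33 that FLO1 lacks. Over the 18 libraries the FLO1 mean was 0.172% of the OE33 mean for IVL, 0.174% for SPRR3, 0.440% for SPRR1B, 0.704% for SPRR1A and 1.05% for SPRR2D. A set of 14 genes, each at 50 CPM or more in all 3 unexposed OE33 shControl libraries and under 0.1 CPM in at least 2 of the 3 FLO1 ones, summed to between 0.0776% and 0.250% of its OE33 level in the FLO1 libraries. The 2 kinds of percentage have different bases. The 14 genes were set against unexposed OE33 shControl, and the precursor genes against all 18 OE33 libraries. Over those 18 libraries IVL averaged 19.5 CPM and SPRR3 14.4 CPM. In unexposed OE33 shControl they had 13.1 and 9.93 CPM, so on that base their percentages would be higher. The precursor genes were therefore not placed against that range. Whether these traces are reads carried over from OE33 libraries was not tested.

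RefSeq promoter sequences (GRCh38.p14) were at hand for 5 of the 10 genes, and the 250 bases before the start are shown for the 4 envelope precursor genes among them, since these 4 moved together in OE33. The precursor genes lie within the epidermal differentiation complex on chromosome 1. Capitals mark matches to TGANTCA, the binding letters of AP-1 (FOS and JUN dimers), searched on both strands.

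IVL, chr1:152908296-152908545, plus strand: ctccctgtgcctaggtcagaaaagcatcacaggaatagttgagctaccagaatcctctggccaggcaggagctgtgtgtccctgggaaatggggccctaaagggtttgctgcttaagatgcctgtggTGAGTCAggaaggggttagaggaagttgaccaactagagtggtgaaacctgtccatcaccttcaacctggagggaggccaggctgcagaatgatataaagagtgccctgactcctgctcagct

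SPRR3, chr1:153001499-153001748, plus strand: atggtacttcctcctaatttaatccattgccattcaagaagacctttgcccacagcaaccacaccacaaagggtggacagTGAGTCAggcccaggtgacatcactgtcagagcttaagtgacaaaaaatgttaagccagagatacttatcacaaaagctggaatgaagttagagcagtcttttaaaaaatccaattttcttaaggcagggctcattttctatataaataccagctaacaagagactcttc

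SPRR1A, chr1:152983831-152984080, plus strand: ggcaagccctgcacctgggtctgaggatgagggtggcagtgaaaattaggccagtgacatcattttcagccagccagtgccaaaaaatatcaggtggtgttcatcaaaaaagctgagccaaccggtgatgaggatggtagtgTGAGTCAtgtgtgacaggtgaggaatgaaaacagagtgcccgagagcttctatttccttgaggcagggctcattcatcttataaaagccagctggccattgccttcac

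SPRR1B, chr1:153030953-153031202, plus strand: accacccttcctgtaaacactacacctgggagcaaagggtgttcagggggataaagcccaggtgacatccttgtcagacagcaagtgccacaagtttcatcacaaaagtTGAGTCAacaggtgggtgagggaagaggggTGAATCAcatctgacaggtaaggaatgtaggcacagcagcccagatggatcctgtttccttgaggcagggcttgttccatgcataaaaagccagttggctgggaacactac

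Each of these 4 windows held the AP-1 letters: at -123 to -117 from the start in IVL, at -170 to -164 in SPRR3, at -108 to -102 in SPRR1A, and at -141 to -135 and -111 to -105 in SPRR1B. Of 35116 RefSeq promoter windows of the same length, 6.57% held them. KRT5, the fifth gene with a sequence, did not hold these letters in its window on the minus strand at chr12:52520395-52520644. GGAATG, the letters of TEAD factors, stood in the SPRR1A, SPRR1B and SPRR3 windows (11.9% of all windows), and TATAAA in those of IVL, SPRR1A and SPRR3 (10.7% of all windows). CCAAT stood in the SPRR3 window alone of the 5 (32.0% of all), and AACNGGTT, the letters of grainyhead-like factors, in none of the 5 (1.49% of all); all were searched on both strands. No measurement of binding is part of these data, so a match describes the sequence only. SPRR2D, KRT6A, KRT13, KRT17 and TGM1 are named without a sequence.

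The first question put to these genes was how they change when APE1 is knocked down without a reflux exposure. In OE33, 7 of the 10 rose with shAPE1#1 and the same 7 rose with shAPE1#3: KRT6A, KRT13, IVL, SPRR1A, SPRR1B, SPRR2D and SPRR3, by 1.83 to 4.81-fold and by 1.80 to 3.78-fold. None fell. The labels call the 2 shRNAs distinct, but no gene was called between their unexposed groups in OE33, as given below, so the shared direction is not offered as agreement of separate hairpins. Among all 15540 genes tested, 16.4% were called with shAPE1#1 (8.24% higher) and 21.7% with shAPE1#3 (11.2% higher). The median change over the 10 genes was 1.03 with shAPE1#1 and 1.07 with shAPE1#3 on the log2 scale, beside 0.01 and -0.00 over all genes tested. Since the 10 were chosen with earlier results known, neither the number called nor the median tests squamous genes as a set. The same 7 stayed called and higher with both shRNAs after ABS. The 3 shControl libraries serve both comparisons, which are therefore not independent of each other.

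**Figure D1:**
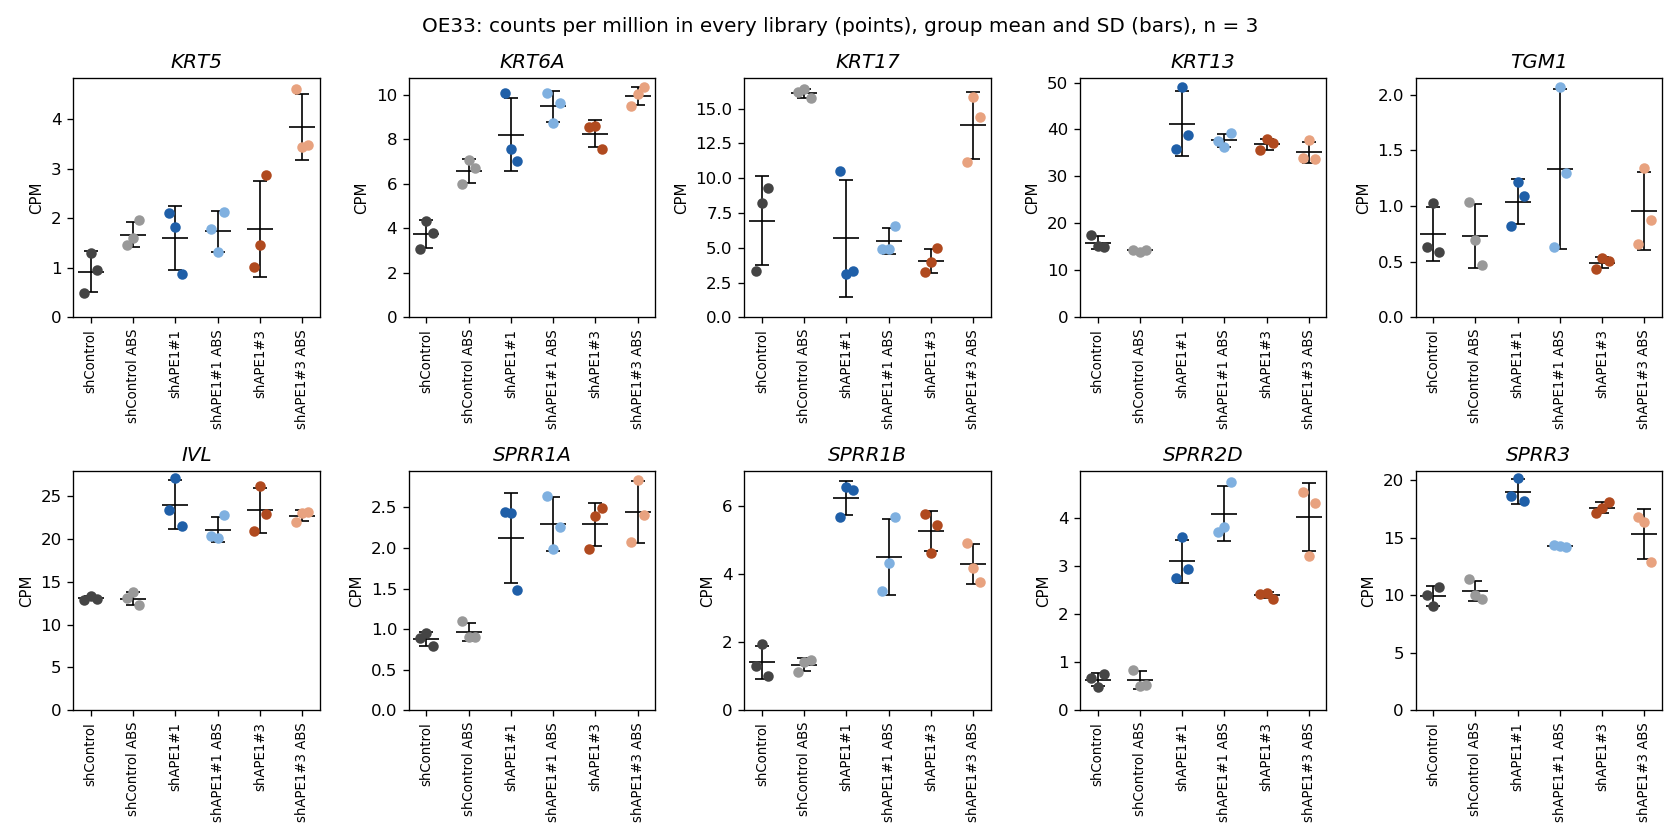
CPM of the 10 genes in the 18 OE33 libraries, 1 panel per gene, with each point 1 library, a horizontal bar for the group mean and whiskers for the SD (n = 3). KRT13, IVL and the 4 SPRR genes form 2 tiers, with the 6 shControl libraries below the 12 shAPE1 libraries, while KRT17 is highest in shControl and shAPE1#3 after ABS.

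SPRR2D, a precursor of the SPRR2 branch, changed most. Unexposed shControl libraries held 0.669, 0.494 and 0.755 CPM, shAPE1#1 libraries 2.76, 3.61 and 2.93 CPM and shAPE1#3 libraries 2.42, 2.44 and 2.32 CPM. Every shAPE1 library lay above every shControl library. The log2 fold change was 2.27 ± 0.24 (adjusted p = 1.06e-07) with shAPE1#1 and 1.92 ± 0.25 (adjusted p = 3.23e-06) with shAPE1#3. These levels rest on few reads, 18, 14 and 22 counts in the 3 control libraries. After ABS the gap was wider, at 0.840, 0.508 and 0.527 CPM in shControl, 3.70, 3.81 and 4.75 CPM in shAPE1#1 and 4.54, 3.21 and 4.31 CPM in shAPE1#3. The change against shControl was then 2.66 ± 0.23 (adjusted p = 3.75e-09) and 2.66 ± 0.23 (adjusted p = 3.96e-09). The interaction with ABS was 0.39 ± 0.35 (adjusted p = 1.00) and 0.74 ± 0.35 (adjusted p = 0.999), so a wider gap was not called.

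SPRR1B, whose product is laid down early in the envelope of stressed epithelium, stood at 1.30, 1.94 and 0.995 CPM in unexposed shControl, 5.68, 6.57 and 6.48 CPM in shAPE1#1 and 5.76, 4.62 and 5.44 CPM in shAPE1#3. The groups did not overlap. It rose by 2.14 ± 0.21 (adjusted p = 4.17e-08) and 1.92 ± 0.22 (adjusted p = 3.77e-07) on the log2 scale. After ABS the shAPE1 libraries ran from 3.50 to 5.69 CPM against 1.13 to 1.49 CPM in shControl, again without overlap, with changes of 1.71 ± 0.22 (adjusted p = 2.41e-06) and 1.67 ± 0.22 (adjusted p = 3.40e-06).

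SPRR1A, its close relative, had 0.891, 0.952 and 0.789 CPM in unexposed shControl, 2.45, 2.43 and 1.48 CPM in shAPE1#1 and 1.99, 2.40 and 2.49 CPM in shAPE1#3. Replicate 3 of shAPE1#1 was lower than the other two but still above all controls. The change was 1.27 ± 0.24 (adjusted p = 0.000499) and 1.40 ± 0.25 (adjusted p = 0.000161) unexposed, and 1.20 ± 0.23 (adjusted p = 0.000688) and 1.34 ± 0.23 (adjusted p = 0.000156) after ABS.

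SPRR3, a small proline-rich protein typical of the esophagus, was the most abundant SPRR gene in CPM, with 10.0, 9.02 and 10.7 CPM in unexposed shControl. It stood at 18.6, 20.2 and 18.2 CPM with shAPE1#1 and at 17.1, 17.5 and 18.1 CPM with shAPE1#3, all above the controls. It rose by 0.94 ± 0.11 (adjusted p = 4.01e-07) and 0.85 ± 0.11 (adjusted p = 2.38e-06). After ABS the rise was smaller in value, 0.42 ± 0.11 (adjusted p = 0.00742) and 0.57 ± 0.11 (adjusted p = 0.000365), and the first of these was not called in a fit of all 36 libraries (adjusted p = 0.0973). The test of that difference, the interaction of knockdown and ABS, gave -0.52 ± 0.15 (adjusted p = 0.846) for shAPE1#1 and -0.28 ± 0.15 (adjusted p = 0.999) for shAPE1#3, so a change in the effect of knockdown was not called.

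IVL, the scaffold onto which the envelope is built, had 12.9, 13.4 and 13.0 CPM in unexposed shControl, a spread of 0.261 CPM (SD, n = 3). The shAPE1#1 libraries held 23.3, 27.1 and 21.5 CPM and the shAPE1#3 libraries 20.9, 26.2 and 22.9 CPM. Groups were well apart. IVL rose by 0.87 ± 0.10 (adjusted p = 7.59e-07) and 0.85 ± 0.10 (adjusted p = 1.27e-06), and after ABS by 0.66 ± 0.10 (adjusted p = 5.31e-05) and 0.80 ± 0.10 (adjusted p = 2.73e-06).

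KRT13 had the highest CPM of the 10 genes in every OE33 group except shControl after ABS, where KRT17 was higher. It had 17.6, 15.1 and 15.03 CPM in unexposed shControl, 35.9, 49.1 and 38.8 CPM with shAPE1#1 and 35.5, 37.9 and 37.1 CPM with shAPE1#3. The lowest shAPE1 library was more than 2 times the highest control. KRT13 rose by 1.38 ± 0.10 (adjusted p = 4.26e-10) and 1.23 ± 0.11 (adjusted p = 3.63e-09), and by 1.36 ± 0.10 (adjusted p = 6.11e-10) and 1.30 ± 0.10 (adjusted p = 1.29e-09) after ABS.

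KRT6A had 3.08, 4.34 and 3.81 CPM in unexposed OE33 shControl, 10.1, 7.55 and 7.02 CPM with shAPE1#1 and 8.57, 8.62 and 7.55 CPM with shAPE1#3. It rose by 1.13 ± 0.15 (adjusted p = 3.32e-06) and 1.16 ± 0.15 (adjusted p = 3.14e-06). After ABS its shControl level was itself higher, at 6.01, 7.08 and 6.70 CPM, and the shAPE1 groups stood at 10.1, 8.73 and 9.63 CPM and 9.50, 10.0 and 10.3 CPM. All groups stayed apart, with smaller changes of 0.49 ± 0.14 (adjusted p = 0.0153) and 0.60 ± 0.14 (adjusted p = 0.00257). The first of these was lost without shAPE1#1 replicate 1 after ABS (0.43, adjusted p = 0.0707) or without shControl replicate 1 after ABS (0.42, adjusted p = 0.0734). In a fit of all 36 libraries together, where the spread of KRT6A is shared with FLO1, none of the 4 changes was called, with adjusted p of 0.167 and 0.136 unexposed and 0.610 and 0.489 after ABS. The interaction with ABS was -0.65 ± 0.20 (adjusted p = 0.846) for shAPE1#1 and -0.56 ± 0.20 (adjusted p = 0.999) for shAPE1#3 and was not called.

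**Figure D2:**
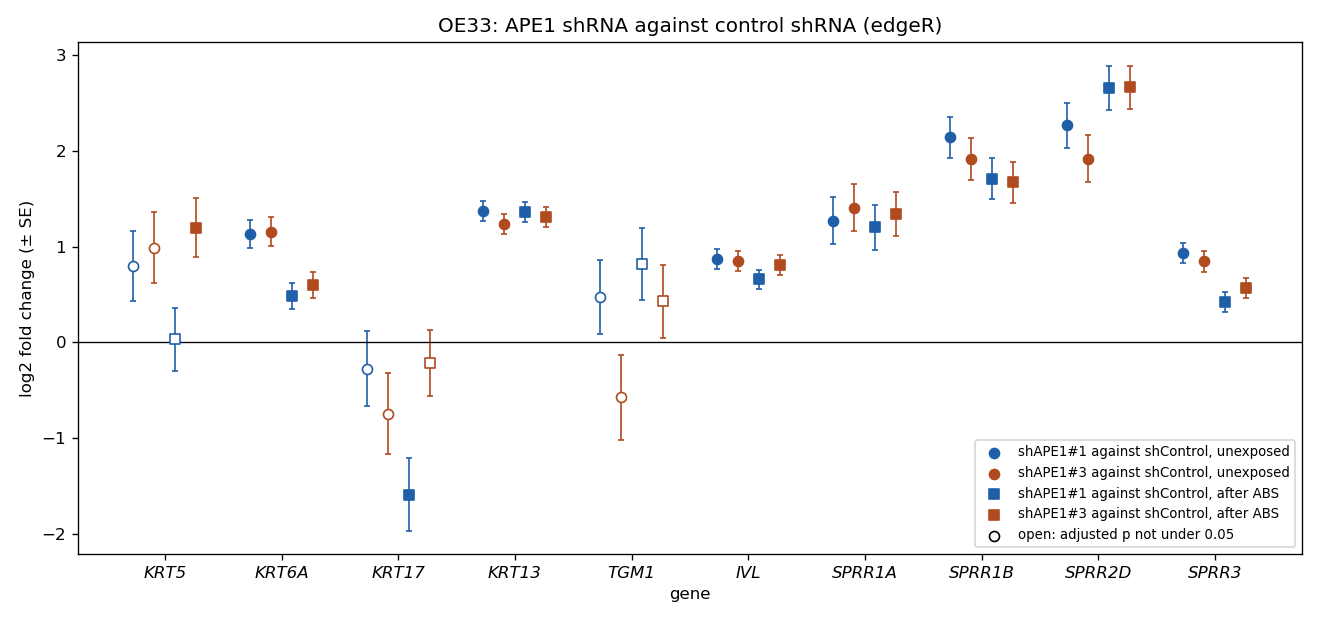
Log2 fold change of each gene with shAPE1#1 (blue) and shAPE1#3 (brown) against shControl in OE33, unexposed (circles) and after ABS (squares), with SE as whiskers and open symbols where the adjusted p was not under 0.05. The 7 genes KRT6A, KRT13, IVL, SPRR1A, SPRR1B, SPRR2D and SPRR3 are filled and above 0 in all 4 comparisons, while KRT5, KRT17 and TGM1 are mostly open.

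The 3 other genes were not called with unexposed knockdown. The changes of KRT5 were of similar size to those of IVL and SPRR3, with wider errors. KRT5, the basal keratin, had 0.483, 1.30 and 0.961 CPM in unexposed shControl, 2.11, 1.83 and 0.868 CPM with shAPE1#1 and 1.02, 1.47 and 2.87 CPM with shAPE1#3, with overlap in both cases (0.80 ± 0.37, adjusted p = 0.153 and 0.99 ± 0.37, adjusted p = 0.0591). After ABS it rose with shAPE1#3, 4.62, 3.45 and 3.47 CPM against 1.45, 1.60 and 1.95 CPM in shControl (1.20 ± 0.31, adjusted p = 0.00746), and had 1.77, 1.31 and 2.13 CPM with shAPE1#1 (0.03 ± 0.33, adjusted p = 0.969). TGM1, the crosslinking enzyme, stayed between 0.436 and 2.06 CPM in all OE33 libraries (9 to 52 counts), and none of its 4 comparisons with knockdown was called. Unexposed TGM1 stood at 0.436, 0.533 and 0.506 CPM with shAPE1#3, below its 0.631, 1.02 and 0.584 CPM with shControl without overlap. Its change was 0.47 ± 0.39 with shAPE1#1 and -0.57 ± 0.44 with shAPE1#3, with 95% intervals of -0.29 to 1.22 and -1.44 to 0.29 that leave changes of over 2-fold possible.

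KRT17 went its own way in OE33. Unexposed shControl libraries held 3.31, 8.21 and 9.30 CPM, shAPE1#1 libraries 10.5, 3.12 and 3.33 CPM and shAPE1#3 libraries 3.24, 3.95 and 4.97 CPM. The first shAPE1#1 library was 3.17 times the next, and the groups overlapped (-0.28 ± 0.40, adjusted p = 0.714 and -0.75 ± 0.42, adjusted p = 0.238). After ABS the shControl libraries stood close together at 16.2, 16.4 and 15.8 CPM and the shAPE1#1 libraries at 4.92, 4.92 and 6.53 CPM, without overlap, and KRT17 fell by 1.59 ± 0.38 (adjusted p = 0.00879). With shAPE1#3 after ABS KRT17 had 11.2, 15.8 and 14.4 CPM (-0.22 ± 0.35, adjusted p = 0.735), and the 2 shRNAs were not tested against each other after ABS. KRT17 was thus the only one of the 10 genes called lower with knockdown in OE33, in 1 of the 4 comparisons, and that call and the one of KRT5 were lost in the fit of all 36 libraries (adjusted p = 0.163 and 0.155).

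After ABS, 7 of the 10 genes were higher and 1 lower with shAPE1#1, and 8 were higher with shAPE1#3, against 15.8% of all genes called (7.34% higher) and 18.1% called (8.75% higher). The median change over the 10 genes was 0.74 and 1.00 on the log2 scale, beside 0.00 and -0.00 over all genes. Unexposed, the number called was 6 to 8 with shAPE1#1 and 6 to 8 with shAPE1#3 over the alternatives tried in normalization, test, filter and fit, single libraries left out included.

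Between the 2 shRNAs, unexposed OE33 cells showed no call among the 10 genes and 0% among all genes with edgeR. At an unadjusted p under 0.05, 1 of the 10 (TGM1, -1.04 ± 0.43, adjusted p = 0.517) and 1248 of all genes differed, and DESeq2 called 0 and 34. Among the 7 genes that rose, the 95% intervals of the difference differed in width. They were -0.34 to 0.05 for KRT13 and -0.22 to 0.18 for IVL, and wider for SPRR2D (-0.74 to 0.05) and SPRR1A (-0.30 to 0.57). For the interaction of knockdown and ABS none of the 10 was called, with 0% of all genes called for shAPE1#1 and 0.0129% for shAPE1#3. At an unadjusted p under 0.05, 3 and 2 of the 10 and 557 and 617 of all genes passed, and DESeq2 called none of the 10 and 11 and 15 of all genes.

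Other measures moved with the knockdown groups of OE33. The 48 genes that mark FLO1 were chosen as the OE33 set above but with the lines exchanged, so by low levels in unexposed OE33 shControl. Their sum of 0.995 to 1.45 CPM in those libraries is in part fixed by that choice. It was 1.38 to 6.83 CPM in shControl after ABS and 5.204 to 13.9 CPM in the shAPE1 libraries, at most 0.162% of their 8565 CPM in FLO1. The 7 genes that rose stood lower in FLO1 than in OE33, at 6.98% of the OE33 mean for KRT6A and at most 1.05% for the others. VIM, a mesenchymal filament gene, had 0.574 ± 0.232 CPM in unexposed shControl, 5.72 ± 2.15 CPM with shAPE1#1 and 3.19 ± 0.257 CPM with shAPE1#3 (SD, n = 3), and rose by 3.32 ± 0.51 (adjusted p = 0.000113) and 2.498 ± 0.55 (adjusted p = 0.00270). Of the 12 fibroblast and mesenchymal markers 3 were tested and 2 rose with both shRNAs (VIM and ZEB1), where 16.4% and 21.7% of all genes were called. In unexposed shControl 2 were at 0 (THY1 among them). The summed level was 4.74 to 5.94 CPM in unexposed shControl, 8.72 to 14.9 CPM in shAPE1#1 and 7.22 to 8.31 CPM in shAPE1#3. The 18 columnar markers summed to 24394 to 26409 CPM in unexposed shControl, 20224 to 22335 CPM in shAPE1#1 and 20418 to 21340 CPM in shAPE1#3. Of the 8 immune markers 5 were tested, beside the same shares of all genes called. CD79A rose (1.21 ± 0.25, adjusted p = 0.00106 and 1.46 ± 0.25, adjusted p = 0.000117) and CD14 fell (-0.59 ± 0.17, adjusted p = 0.0181 and -0.53 ± 0.17, adjusted p = 0.0287) with both shRNAs, ITGAM rose with shAPE1#3 (1.53 ± 0.29, adjusted p = 0.000387), and CD79A and CD14 were called in the same directions after ABS. The part of any of these in the rise was not tested.

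The second question was what the acidic bile salts did to these genes. In OE33 shControl cells the number called was near the share of all genes called. With shControl, KRT6A was the only one of the 10 called, against 8.4% of all genes, and it rose from 3.08, 4.34 and 3.81 CPM to 6.01, 7.08 and 6.70 CPM without overlap (log2 0.84 ± 0.15, adjusted p = 0.000603), a call that the fit of all 36 libraries did not make (adjusted p = 0.425). KRT17 had a larger change, from 3.31, 8.21 and 9.30 CPM to 16.2, 16.4 and 15.8 CPM, also without overlap, and stood just outside the threshold (1.23 ± 0.37, adjusted p = 0.0506), while DESeq2 called it. KRT5 stood at 1.45, 1.60 and 1.95 CPM after ABS, above its 3 unexposed libraries (0.88 ± 0.36, adjusted p = 0.141). The changes of the 5 precursor genes, none of them called, lay between -0.05 and 0.17. The fibroblast and mesenchymal markers summed to 5.84 to 25.6 CPM in these shControl libraries after ABS, against 4.74 to 5.94 CPM before, and their part was not tested. The median over the 10 genes was 0.05, beside -0.00 over all genes.

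In cells with shAPE1#1, ABS lowered SPRR3 from 18.6, 20.2 and 18.2 CPM to 14.3, 14.3 and 14.2 CPM, without overlap (-0.43 ± 0.10, adjusted p = 0.0164), and called no other of the 10 against 4.73% of all genes. That call was lost in the fit of all 36 libraries (adjusted p = 0.168), in a fit of the compared groups alone (0.130), without shAPE1#1 replicate 2 (-0.36, adjusted p = 0.0531) and without its replicate 3 after ABS (-0.43, adjusted p = 0.0531). In cells with shAPE1#3, ABS raised KRT17 from 3.24, 3.95 and 4.97 CPM to 11.2, 15.8 and 14.4 CPM (1.77 ± 0.40, adjusted p = 0.0317) and SPRR2D from 2.42, 2.44 and 2.32 CPM to 4.54, 3.21 and 4.31 CPM (0.74 ± 0.20, adjusted p = 0.0422), both without overlap, where 2.26% of all genes were called. KRT17 lost the call without any 1 of these 6 libraries, and SPRR2D without any except replicate 2 after ABS, with adjusted p up to 0.155 and 0.201, and both lost it in the fit of all 36 libraries (0.345 and 0.221). KRT17 thus rose with ABS in cells with shAPE1#3 and stood at -0.08 ± 0.41 in cells with shAPE1#1, where the unexposed group held 1 high library. The interaction for KRT17 was -1.32 ± 0.55 (adjusted p = 1.00) with shAPE1#1 and 0.53 ± 0.55 (adjusted p = 0.999) with shAPE1#3, so the ABS response was not shown to differ with knockdown.

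In FLO1, KRT5, KRT6A and KRT17 were high in 1 library of the unexposed shControl group. FLO1 shControl replicate 1, unexposed, held 156 counts of KRT6A where replicates 2 and 3 held 1 and 5, which is 5.75, 0.0321 and 0.190 CPM. KRT17 stood at 23.6, 0.898 and 2.97 CPM and KRT5 at 4.24, 0.417 and 0.837 CPM in the same libraries, 7.94 and 5.06 times the next library. No other group of either line had a gene of the 10 with 10 or more counts in its highest library and 3 times the next, except KRT13 in FLO1 shAPE1#3 replicate 1 (24 counts, 4.76 times the next) and KRT17 in OE33 shAPE1#1 replicate 1.

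**Figure D3:**
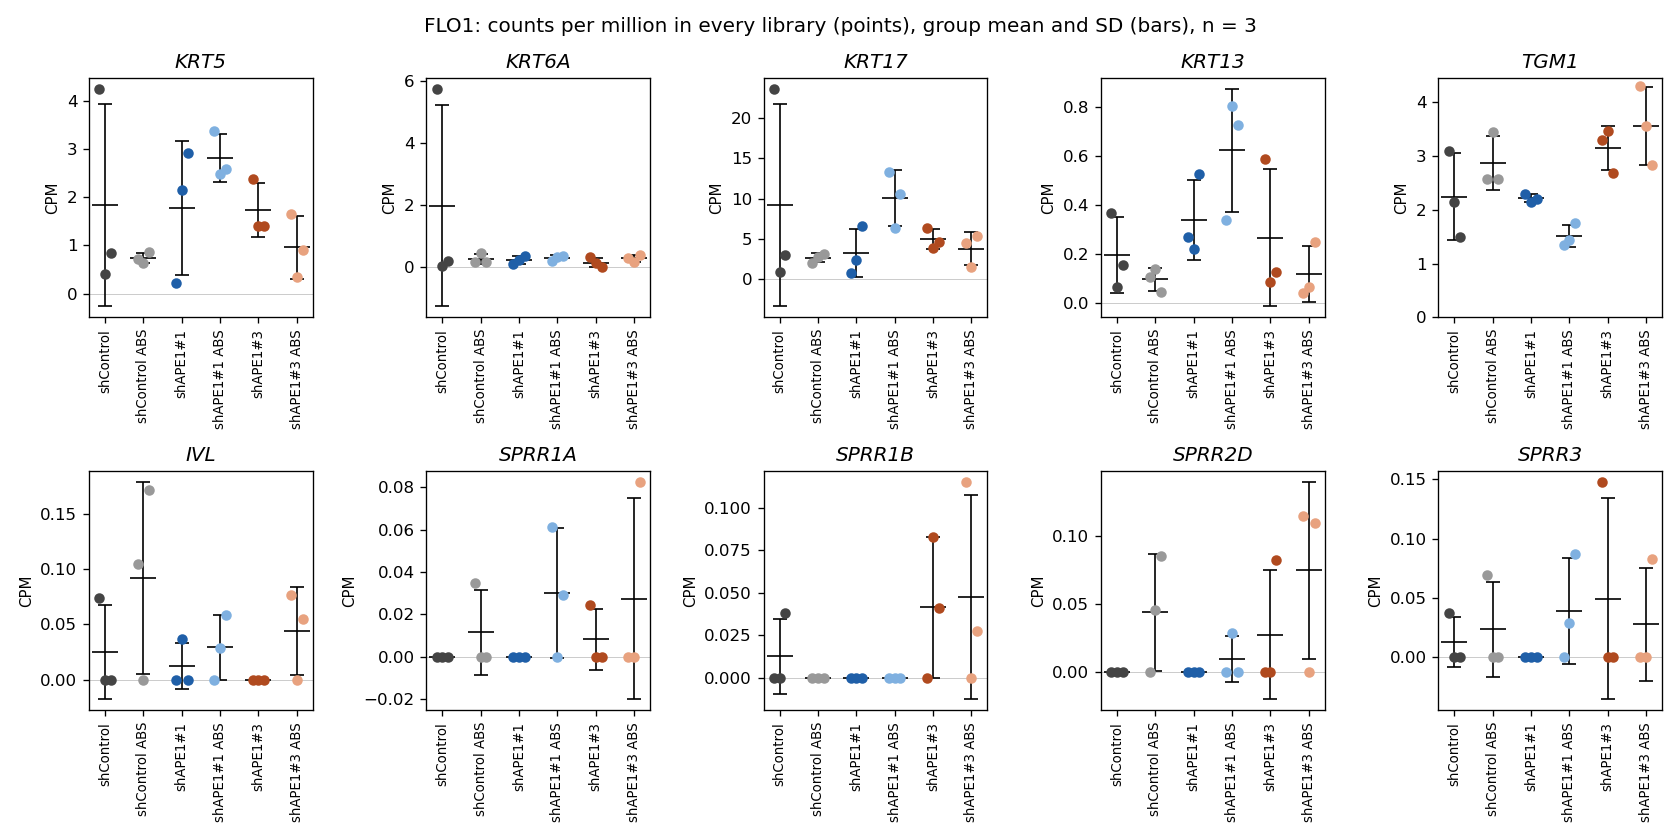
CPM of the 10 genes in the 18 FLO1 libraries, drawn as for OE33, with each panel on its own scale. In the KRT5, KRT6A and KRT17 panels 1 shControl library stands above all others (4.24, 5.75 and 23.6 CPM), and the panels of IVL and the SPRR genes reach at most 0.172 CPM, a few counts per library.

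The same library was the highest of its group for other squamous and stress genes. S100A9, which pairs with S100A8 as calprotectin in inflamed squamous epithelium, had 57, 0 and 0 counts in replicates 1, 2 and 3, S100A8 had 10, 0 and 0, SERPINB3, a squamous protease inhibitor, had 7, 0 and 0, and KRT14, the basal partner of KRT5, had 18, 3 and 2. KRT16, a further stress keratin, did not single it out, with 17, 8 and 14 counts, nor did KRT6B with 6, 3 and 3. The precursor genes held too few counts to show whether they followed. In replicates 1, 2 and 3 IVL had 2, 0 and 0 counts, SPRR3 1, 0 and 0, and SPRR1B 0, 0 and 1. SPRR1A and SPRR2D were at 0 in all 3. The 14 OE33 marker genes summed to 2.98 CPM in replicate 1, 0.241% of their OE33 level. Their sum was 0.962 and 0.990 CPM in replicates 2 and 3 and 0.962 to 3.10 CPM over all FLO1 libraries. This set was chosen by low levels in at least 2 of these 3 replicates. The KRT6A level of replicate 1, 5.75 CPM, lay above the 3 unexposed OE33 shControl libraries and below the other 15 OE33 libraries (6.01 to 10.3 CPM), and KRT17 at 23.6 CPM lay above all OE33 libraries (at most 16.4 CPM). Summed markers of immune cells were 6.19 to 6.86 CPM in the 3 libraries of this group, and those of endothelium 0.257 to 0.837 CPM. The source of the keratin reads was not tested.

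The fold changes of these keratins in FLO1 turned on that library. With ABS in shControl cells KRT6A had a log2 fold change of -2.97 ± 1.02 (adjusted p = 0.139), and without replicate 1 it was 1.23 ± 0.92 (adjusted p = 0.627). For shAPE1#1 against shControl, unexposed, KRT6A went from -3.07 ± 1.01 (adjusted p = 0.0748) to 1.13 ± 0.91 (adjusted p = 0.599), and for shAPE1#3 from -3.52 ± 1.03 (adjusted p = 0.149) to 0.66 ± 0.93 (adjusted p = 0.9499). KRT17 turned likewise, from -1.48 ± 0.95 to 0.81 ± 0.70 (adjusted p = 0.636) with shAPE1#1, from -0.90 ± 0.90 to 1.39 ± 0.68 (adjusted p = 0.682) with shAPE1#3 and from -1.86 ± 0.99 to 0.43 ± 0.73 (adjusted p = 0.865) with ABS. KRT5 moved from -0.03 ± 0.63 to 1.54 ± 0.64 (adjusted p = 0.217) and from -0.06 ± 0.62 to 1.505 ± 0.64 (adjusted p = 0.551) with the 2 shRNAs. KRT5 went from -1.34 ± 0.73 to 0.23 ± 0.72 (adjusted p = 0.936) with ABS. All 9 values changed sign, and none was called with or without the library. Leaving out another control library instead made KRT6A a call: without shControl replicate 2 it was called in all 3 comparisons, and without replicate 3 with shAPE1#1. Tested without the filter on low counts, KRT6A and KRT17 were called lower in all 3 comparisons and KRT5 with ABS. What these settings change in the fit was not tested.

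**Figure D4:**
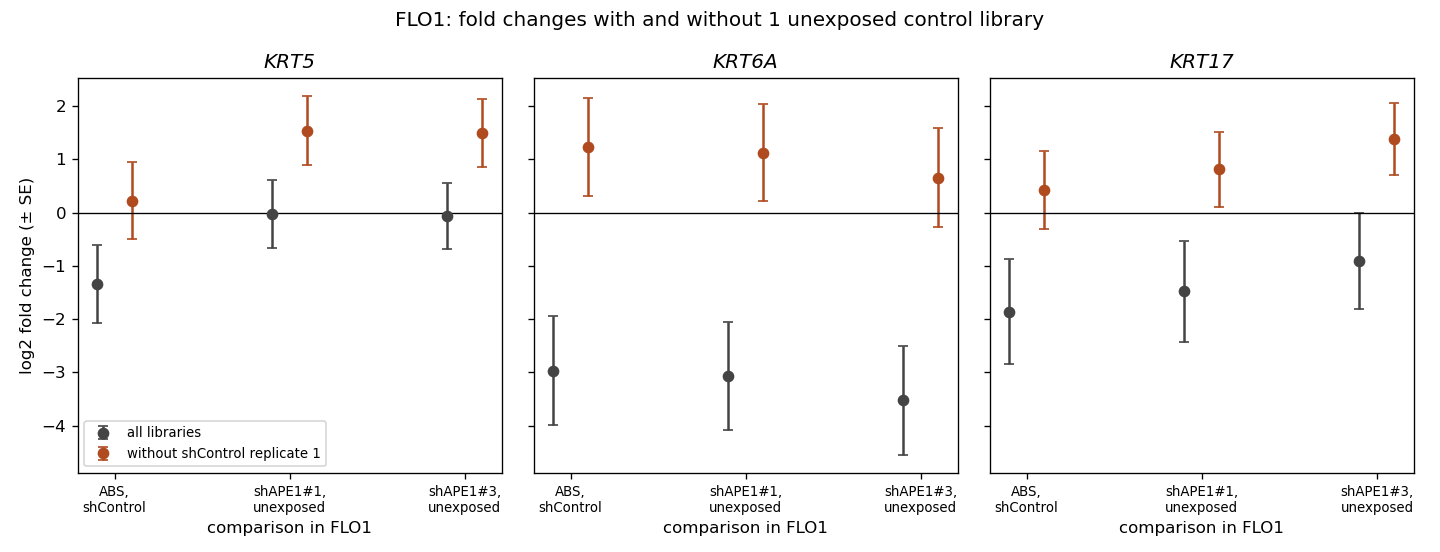
Log2 fold change with SE of KRT5, KRT6A and KRT17 in 3 FLO1 comparisons (ABS in shControl cells, and each shRNA against unexposed shControl), with all libraries (grey) and without shControl replicate 1 (brown). All 9 grey values lie below 0 and all 9 brown values above it.

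With every library included, none of the 10 genes was called in FLO1 for ABS in shControl (3% of all 16868 genes), in shAPE1#1 (5.01%) or in shAPE1#3 cells (1.81%). None was called for unexposed knockdown with shAPE1#1 (6.74% of all genes) or shAPE1#3 (0.788%), for shAPE1#3 after ABS (0.783%), or between the 2 shRNAs (12.2%). Nor was any called for the interactions of ABS with shAPE1#1 (0%) and shAPE1#3 (0%). At an unadjusted p under 0.05, edgeR gave 1, 1 and 0 of the 5 tested genes for ABS, 1 and 2 for unexposed knockdown, 0 for shAPE1#3 after ABS, 1 between the shRNAs, and 3 and 1 for the interactions, and DESeq2 called none of the 10 in any. For the interactions, 1615 and 341 of all genes passed an unadjusted p under 0.05 in edgeR and 30 and 1 were called by DESeq2.

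The exception in FLO1 was shAPE1#1 after ABS, where 2 of the 5 tested genes were called, 1 in each direction, and 16.6% of all genes. KRT13 stood at 0.337, 0.806 and 0.728 CPM against 0.104, 0.138 and 0.0429 CPM in shControl after ABS, without overlap, and rose by 2.70 ± 0.78 (adjusted p = 0.0216). This rests on 11, 28 and 25 counts against 3, 3 and 1, and the call was lost without any of 3 libraries: shAPE1#1 replicates 2 and 3 after ABS (adjusted p = 0.0708 and 0.0600) and shControl replicate 3 after ABS (0.0733). TGM1 had 1.35, 1.44 and 1.75 CPM against 2.57, 3.45 and 2.58 CPM, also without overlap, and fell by 0.89 ± 0.23 (adjusted p = 0.0124), a call that was lost without shControl replicate 2 after ABS (-0.71, adjusted p = 0.0504) and in a fit of the compared groups alone (-0.90, adjusted p = 0.0669). KRT17 in the same comparison had 13.3, 6.36 and 10.5 CPM against 2.05, 2.80 and 3.09 CPM without overlap and was not called (1.959 ± 0.98, adjusted p = 0.197), and KRT5 likewise had 3.37, 2.48 and 2.59 CPM against 0.729, 0.644 and 0.859 CPM (1.94 ± 0.69, adjusted p = 0.0591). Other markers moved in this comparison. Of 14 tested columnar markers 6 rose and 1 fell, and their sum was 4274 to 4684 CPM with shAPE1#1 against 2552 to 3103 CPM in shControl. AGR2, a secretory chaperone, rose from 0.123 ± 0.116 CPM to 1.92 ± 0.444 CPM (SD, n = 3), CDH1 (E-cadherin) from 7.23 ± 0.991 CPM to 15.5 ± 2.06 CPM, and LYZ (lysozyme, listed as an immune marker) from 0, 0 and 0 counts to 11, 7 and 12. Of the same immune list ITGAM was called lower (-0.79 ± 0.15, adjusted p = 0.00127), and CD14 and CD68 were not called. LYZ was also called higher with shAPE1#3 after ABS (7.79 ± 1.30, adjusted p = 0.00372). The mesenchymal factor ZEB2 fell from 10.5 ± 1.42 CPM to 5.64 ± 0.737 CPM, 1 of 5 tested markers of that list. Their part in the changes of KRT13 and TGM1 was not tested. With shAPE1#3 the changes of KRT13 and TGM1 after ABS were 0.38 ± 0.99 and 0.30 ± 0.22.

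TGM1 lay between 1.35 and 4.29 CPM over the 18 FLO1 libraries, without a library that stood apart. Its unexposed levels were 3.10, 2.15 and 1.48 CPM with shControl, 2.30, 2.15 and 2.20 CPM with shAPE1#1 and 3.30, 3.46 and 2.68 CPM with shAPE1#3, which overlap. KRT13 reached at most 0.806 CPM (28 counts) in FLO1.

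The difference between the lines was tested directly for the 2 main effects. For the ABS response in shControl cells none of the 10 genes was called by edgeR (1.73% of all 18199 genes), 3 passed an unadjusted p under 0.05 and DESeq2 called 1, KRT6A. For the mean unexposed effect of both shRNAs 1 of the 10 was called, against 6.37% of all genes: KRT6A, whose effect was 4.37 ± 0.87 higher in OE33 (adjusted p = 0.00154). Without FLO1 shControl replicate 1 the difference was 0.19 ± 0.94 (adjusted p = 1.00). The rise of the other 6 genes in OE33 was not shown to differ from FLO1. KRT13 differed by 0.56 ± 0.61. IVL differed by 2.56 ± 1.32 (adjusted p = 0.303), SPRR1B by 2.23 ± 1.83 and SPRR3 by 0.83 ± 1.14, values that rest on very few FLO1 counts. SPRR1A and SPRR2D, with 0 counts in unexposed FLO1 shControl, gave no usable value. Against unexposed FLO1 shControl, OE33 KRT6A itself went from 1.06 ± 0.57 (adjusted p = 0.0936) to 5.24 ± 0.45 (adjusted p = 1.003e-12) without that library, and KRT17 from -0.27 ± 0.69 (adjusted p = 0.732) to 2.01 ± 0.67 (adjusted p = 0.00912).

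Other genes of squamous differentiation, from lists chosen with results of these data in view, were set beside the 10 in unexposed OE33. Over all genes tested, 16.4% were called with shAPE1#1 and 21.7% with shAPE1#3. Of 13 other squamous and stress keratins 8 were tested, and 1 rose and 1 fell with shAPE1#1 while 0 rose and 1 fell with shAPE1#3. KRT80, a keratin of differentiating epithelia, fell with both, from 214 ± 4.11 CPM to 147 ± 5.62 and 149 ± 5.00 CPM (log2 -0.55 ± 0.07, adjusted p = 9.91e-07 and -0.51 ± 0.07, adjusted p = 3.07e-06). KRT78 was the 1 that rose, with shAPE1#1 (0.89 ± 0.22, adjusted p = 0.00622). Of 31 other envelope genes only 8 were tested, and 3 rose and 1 fell with shAPE1#1, 2 rose and 1 fell with shAPE1#3. SPRR2A, a close relative of SPRR2D, rose by 1.05 ± 0.29 (adjusted p = 0.0140) and 0.90 ± 0.31 (adjusted p = 0.0363), and SCEL (sciellin, an envelope precursor) by 0.50 ± 0.11 (adjusted p = 0.00172) and 0.53 ± 0.11 (adjusted p = 0.000867), from 45.1 ± 3.88 CPM to 63.8 ± 7.94 and 64.2 ± 2.45 CPM. PPL (periplakin, which ties the envelope to desmosomes) fell with both, with changes of -0.38 ± 0.08 (adjusted p = 0.000985) and -0.23 ± 0.08 (adjusted p = 0.0313).

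Of 21 proteases, inhibitors and lipid enzymes of cornification 12 were tested, and 3 rose and 5 fell with shAPE1#1, 4 rose and 4 fell with shAPE1#3. The shares of all genes called were 16.4% and 21.7%. SERPINB2, a serine protease inhibitor found in the envelope, rose from 58.8, 56.4 and 57.0 CPM to 145, 137 and 157 CPM and 142, 141 and 129 CPM (log2 1.35 ± 0.08, adjusted p = 7.17e-12 and 1.28 ± 0.08, adjusted p = 2.02e-11), and ALOXE3, a lipoxygenase of barrier lipids, by 0.89 ± 0.13 (adjusted p = 2.51e-05) and 0.86 ± 0.14 (adjusted p = 4.45e-05). Of the kallikreins, serine proteases that help to shed the uppermost cells, KLK11 fell from 22.0 ± 2.07 CPM to 12.1 ± 2.01 and 12.1 ± 0.598 CPM (log2 -0.86 ± 0.13, adjusted p = 4.11e-05 and -0.84 ± 0.14, adjusted p = 5.62e-05). KLK5 fell too, with changes of -0.56 ± 0.12 (adjusted p = 0.00135) and -0.55 ± 0.12 (adjusted p = 0.00150). KLK7, a further kallikrein, rose after ABS with shAPE1#3 (0.80 ± 0.16, adjusted p = 0.000751).

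Of 19 squamous transcription factors 16 were tested, and 4 rose and 5 fell with shAPE1#1, 4 rose and 2 fell with shAPE1#3. Beside these, 16.4% and 21.7% of all genes were called. PRDM1, a transcriptional repressor that takes part in terminal keratinocyte differentiation, rose from 2.19, 1.37 and 2.64 CPM to 6.63, 6.00 and 6.29 CPM and 5.38, 4.97 and 6.37 CPM (log2 1.61 ± 0.18, adjusted p = 4.01e-07 and 1.45 ± 0.19, adjusted p = 3.05e-06). NOTCH3, a receptor active in suprabasal cells, fell from 68.5 ± 1.95 CPM to 35.3 ± 4.27 and 41.2 ± 3.28 CPM (log2 -0.96 ± 0.10, adjusted p = 5.04e-08 and -0.71 ± 0.10, adjusted p = 5.39e-06). SOX2, a factor of the esophageal lining, rose by 0.42 ± 0.13 (adjusted p = 0.0230) and 0.45 ± 0.13 (adjusted p = 0.0124), ELF3, an epithelial ETS factor, fell by 0.35 ± 0.06 (adjusted p = 0.000264) with shAPE1#1, and GRHL3, a grainyhead factor of the barrier, rose by 0.37 ± 0.08 (adjusted p = 0.00162) with shAPE1#3. TP63, the master factor of basal squamous cells, held at most 17 counts in any OE33 library and at most 11 in any FLO1 library. The medians of the 4 lists lay between -0.22 and 0.06 with shAPE1#1 and between -0.12 and 0.33 with shAPE1#3, beside the 1.03 and 1.07 of the 10 genes. The 10 were chosen with earlier results of these data known, so no conclusion is drawn from that contrast. After ABS the calls were 0 higher and 1 lower among the keratins with either shRNA, 2 and 1 with shAPE1#1 and 4 and 1 with shAPE1#3 among the envelope genes, 2 and 5 with either among the enzymes and inhibitors, and 3 and 3 and then 4 and 2 among the transcription factors. The shares of all genes called after ABS were 15.8% with shAPE1#1 and 18.1% with shAPE1#3.

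**Figure D5:**
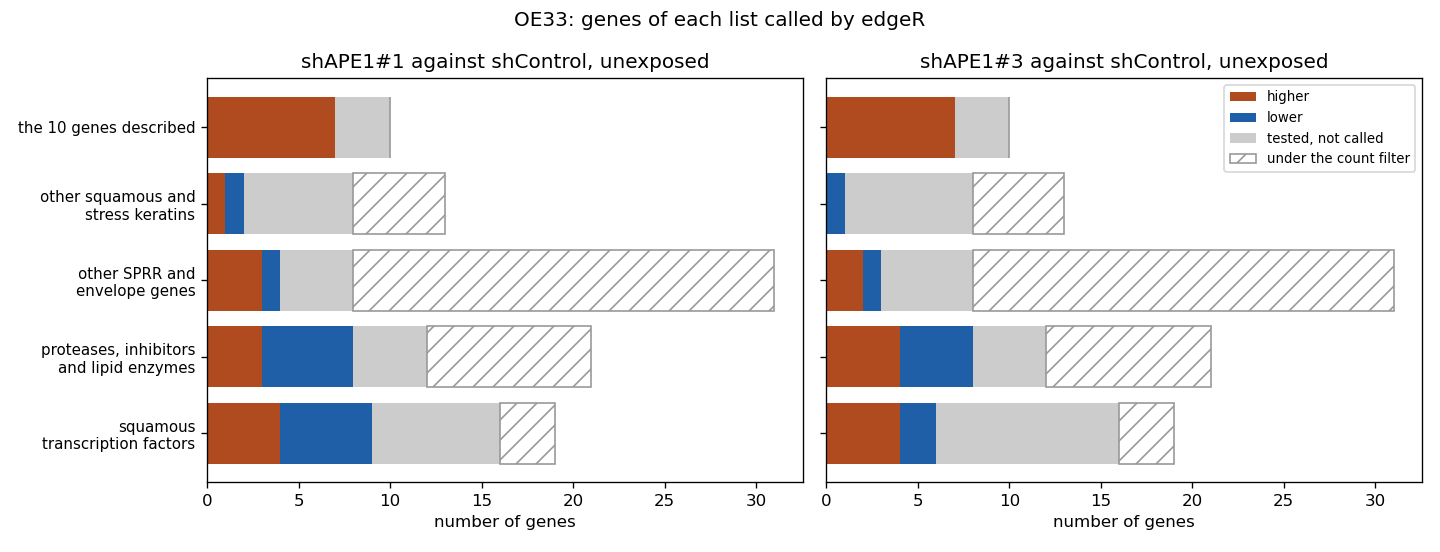
Number of genes called higher (brown), called lower (blue), tested but not called (grey) and under the count filter (hatched) in the 10 genes described and in the 4 other lists, for each shRNA against unexposed shControl in OE33. The 10 genes, chosen with earlier results of these data known, have 7 higher and 0 lower with either shRNA. The other lists hold both directions with shAPE1#1.

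With ABS in shControl cells, 1 of 8 tested keratins, 2 of 12 enzymes and inhibitors and 3 of 16 transcription factors of these lists rose in OE33 and 1 transcription factor fell, where 8.4% of all genes were called. In FLO1, 1 of 8 keratins, 1 of 6 enzymes and inhibitors and 2 of 13 transcription factors rose and 1 transcription factor fell, where 3% of all genes were called. Of the other envelope genes edgeR called none of 8 in OE33 and none of 10 in FLO1, with 3 and 1 at an unadjusted p under 0.05 and 0 and 0 called by DESeq2. ALOXE3 rose with ABS in shControl cells of OE33 (1.05 ± 0.13, adjusted p = 9.27e-06) and of FLO1 (1.59 ± 0.24, adjusted p = 0.000191). KLF4, a factor of suprabasal differentiation, rose in OE33 (0.38 ± 0.08, adjusted p = 0.00433) and in FLO1 (0.86 ± 0.10, adjusted p = 1.23e-05). KRT75, a keratin of hair follicles, rose in FLO1 shControl (2.65 ± 0.57, adjusted p = 0.00989) and shAPE1#3 cells (3.48 ± 0.63, adjusted p = 0.00277).

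Among the 18 OE33 libraries the 7 genes that rose ran closely together. Pearson's r of log2 CPM over the 21 pairs of the 7 was 0.65 to 0.97, with a median of 0.90, and KRT17 had r between -0.49 and 0.13 with them. These are descriptions over libraries that share groups, where a difference between groups alone gives a high r. By the same measure, over the 11713 genes whose log2 CPM averaged 1 or more, the gene most like KRT13 was TMEM171 (r = 0.98), followed by HOXB2 (0.98) and ZBED2 (0.97). IVL was most like TGM2, another transglutaminase (0.97), FURIN (0.97) and TMEM171 (0.97). SPRR1B was most like TPM1 (0.97) and MYL9 (0.97), genes of the contractile cytoskeleton, and TMEM171 (0.96). TMEM171 thus appeared among the 3 nearest genes of KRT13, IVL and SPRR1B. SPRR2D was most like IL32 (0.96), KALRN (0.96) and ANXA6 (0.96), SPRR3 like MT-TP (0.95), MRPS5 (0.94) and CD59 (0.94), and KRT6A like PITRM1 (0.97), IL6R (0.96) and NAV2 (0.95). KRT5 was most like SYS1 (0.87), RRP12 (0.84) and PELP1 (0.83).

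Among genes whose log2 CPM averaged 1 or more, KRT17 had a different neighbourhood. MUC5AC, a gel-forming mucin of columnar epithelium, was in it in both lines. In OE33 the genes nearest KRT17 were MUC5AC (0.86), APOL1 (0.84) and MTF1 (0.82), and in FLO1 SFN (0.69), CNPY4 (0.66) and MUC5AC (0.66), the latter over 12055 genes. In FLO1 KRT17 ran closer to KRT5 (r = 0.90) and KRT14 (0.79), which lay under that level limit and were left out of the ranking. KRT6A, also under it, stood at 0.66. In OE33 KRT17 had r = 0.52 with KRT5 and 0.53 with KRT14. SFN is an adaptor protein of epithelial cells also called stratifin. In FLO1 shControl replicates 1, 2 and 3 MUC5AC stood at 1.33, 0.128 and 0.0761 CPM and SFN at 5.38, 2.34 and 2.93 CPM, so the library high in KRT17 was the highest of its group for both. TGM1 in FLO1 was most like SLC29A3 (0.91), MVB12B (0.91) and TNXB (0.89).

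Some of these counts cannot be fully told from those of sister genes, because the counting rule for ambiguous reads is unknown here. Among all 50-base words in the GENCODE 29 transcripts of KRT6A, 32.1% also occur in another gene, mostly KRT6C and KRT6B, and the share is 19.3% for SPRR2D (with SPRR2A and SPRR2B foremost), 11.3% for SPRR1A (with SPRR1B), 9.02% for KRT17 (with its pseudogenes) and 4.38% for SPRR1B (with SPRR1A). It is 2.17% for KRT5, 0.561% for KRT13, and 0 for SPRR3, IVL and TGM1. The genes free of shared words thus include 2 of the 7 that rose, SPRR3 and IVL. The strand setting is not given either, so antisense reads would count for the gene.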

How the data were processed

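Counts of reads per Ensembl gene were deposited by the authors as 1 table of 57500 gene rows and 36 libraries, and were used as deposited. The submitters' processing notes name the build GRCh38 and the tools STAR 2.5.2b, Trimmomatic 0.36, Subread 1.5.2 and featureCounts. Annotation release, strand setting and multi-mapping rule: not given in the sources used here. Symbols came from GENCODE 29, which matched 56898 of the IDs, and the others held 0.0183% of all counts. 1 column, FLO1 shAPE1#3 ABS replicate 3, has an added suffix and an out-of-sequence serial, and was taken as that sample from the rest of its name.

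Each line was fitted on its 18 libraries, with 1 coefficient per group, by the quasi-likelihood test of edgeR 4.0.16 (R 4.3.3) after TMM normalization and filterByExpr, and the contrasts between lines on all 36. The fits tested 16868 genes in FLO1, 15540 in OE33 and 18199 in both, and p-values were adjusted by Benjamini-Hochberg over all of them. CPM were scaled by library totals, except for correlations, which used log2(TMM CPM + 0.5). Ratios with few counts have exact 95% intervals of 2 Poisson counts. The fitting steps were checked on simulated counts. Alternatives were DESeq2 1.42.0, RLE size factors, all 36 libraries in 1 fit, the compared groups alone, no filter, the replicate number as a block, and each library left out. No 2 libraries of a group agreed within sampling noise (chi-square over degrees of freedom from 2.41 up).

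The members and lists were chosen with earlier results of these data known. All members are named. From the other lists, genes called in a comparison were eligible, up to the 4 with the largest change per list, and for likeness the 3 genes with the highest r were named, at a mean log2 CPM of at least 1. TP63, the S100 genes, SERPINB3, KRT14, KRT16, KRT6B, EPCAM and the immune, columnar and mesenchymal markers are named as markers beside a result, after their values were seen.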

Additional observations from a re-analysis of the deposited data

Results flagged for a closer look

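The effect of knockdown on KRT6A differed between the lines. The mean unexposed log2 effect of both shRNAs was 4.37 ± 0.87 (SE) higher in OE33 than in FLO1 (edgeR quasi-likelihood test of the difference, Benjamini-Hochberg adjusted p = 0.00154). In OE33 the shControl libraries held 3.08, 4.34 and 3.81 CPM and all 6 shAPE1 libraries more. In FLO1 the shControl libraries held 5.75, 0.0321 and 0.190 CPM, and all 6 shAPE1 libraries less than the first of these. Without that FLO1 library the difference was 0.19 ± 0.94 (adjusted p = 1.00). Its part in the difference is thus given by that value, and where its KRT6A reads came from was not tested.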

How the results depend on the processing

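Of the recomputed numbers of called genes among the 10, 270 stayed within 1.5 times the reported number and 45 did not, and of the recomputed fold changes of called genes 495 kept the call, 35 lost it and none changed sign. With RLE size factors no number moved. The numbers in this section count the 10 genes only. Except for DESeq2, how many of all genes were called under each setting is not given here. A move of the 10 is therefore not told apart from a move of all genes. With no filter on low counts the number called in FLO1 was 3 for ABS in shControl, 1 in shAPE1#1 and 1 in shAPE1#3, 3 and 2 for the interactions, 2 and 2 for unexposed knockdown, 4 for shAPE1#1 after ABS and 1 between the shRNAs. It was then 3 for the line difference in ABS response, 2 for that in knockdown, and 2 for ABS in OE33 shControl. With DESeq2 it was 1 for FLO1 shAPE1#1 after ABS, 1 for the line difference in ABS response, 1 for ABS in OE33 shAPE1#3 and 2 in OE33 shControl. In these comparisons DESeq2 called 3312, 592, 674 and 1624 of all genes, and edgeR 2795, 315, 351 and 1306. DESeq2 gave no adjusted p to KRT13 in FLO1 shAPE1#1 after ABS, nor to SPRR2D with ABS in OE33 shAPE1#3. In 1 fit of all 36 libraries the number was 1 for FLO1 shAPE1#1 unexposed, 5 for OE33 shAPE1#1 after ABS, and 0 for ABS in OE33 shControl, shAPE1#1 and shAPE1#3. With only the groups compared it was 1 between the FLO1 shRNAs, 0 for ABS in OE33 shAPE1#1 and 2 in OE33 shControl.

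Leaving out 1 library at a time, the number ran from 0 to 1 for ABS in FLO1 shControl, for FLO1 shAPE1#1 and shAPE1#3 unexposed, for the line difference in knockdown, and for ABS in OE33 shAPE1#1 and shAPE1#3, from 1 to 2 for FLO1 shAPE1#1 after ABS, and from 0 to 2 for the line difference in ABS response. The cause of these moves was not tested, except that fewer libraries were fitted. Few same-numbered libraries deviated together (4 of 45 pairs of libraries over a correlation of 0.1 in FLO1, 9 of 45 in OE33). Differently numbered libraries were not compared in this way, so a pairing by number is neither shown nor excluded. With the replicate number as a block 1 gene was called for the line difference in ABS response (KRT6A) and 1 for ABS in OE33 shAPE1#3 (KRT17), SPRR2D being lost there at an adjusted p of 0.0627, and the block moved no other number beyond 1.5 times and ended no other call. Depth limits the 5 precursor genes in FLO1, where no library held more than 6 counts of any.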
